A study of Mus musculus with 30 samples.

Results

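The comparison described here sets the late day against the late night in samples of mouse retinal pigment epithelium (RPE), the pigmented cell layer that lies against the photoreceptors and services them. Its members are 10 of the 30 libraries of the study: 5 from zeitgeber time (ZT) 9, labelled as 16 h by the clock, and 5 from ZT19, labelled as 2 h. ZT counts hours from lights-on, here 7 h by the clock. Every library is from 1 eye of 1 male wild-type C57BL/6 mouse of 10 to 13 weeks, and the same strain, sex, genotype and age range apply to the other 4 time points (ZT0, ZT2, ZT4 and ZT14), so the labels set the groups apart by the time of collection, beside which eye side and animal number vary. Mice were killed by cervical dislocation, the eyecup without front segment and retina was kept in RNAlater, and the RPE was afterwards peeled from the choroid in pieces with forceps. Transcript levels are given as FPKM, the reads of a gene scaled by its length and by the depth of the library.

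The molecular clock is a loop of transcription factors present in most cells. Arntl (BMAL1) and Clock form a dimer that binds E-box sequences and drives the genes of their own repressors, the Period and Cryptochrome proteins, together with the nuclear receptors REV-ERBα (Nr1d1) and REV-ERBβ (Nr1d2). The REV-ERB proteins in turn repress Arntl at sites that the ROR receptors use to activate it, and output factors such as Dbp carry the rhythm to other genes through D-box sequences. In the eye, the RPE takes up the shed tips of photoreceptor outer segments in a daily burst, recycles retinoid for vision, and moves lactate, ions and water.

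The libraries carried an RPE signature together with RNA of neighbouring tissues. Of 15 RPE identity genes, most were abundant in all 10 libraries: Rpe65, the retinoid isomerase, lay between 796 and 1629 FPKM, and Ttr, which carries retinol and thyroid hormone, between 3198 and 6800 FPKM. Best1, a chloride channel gene used as an RPE marker, was an exception, at most 3.93 FPKM and listed at 0 in 3 of the 10. The summed level of 18 markers of surface epithelium (cornea and conjunctiva) was 3348, 16939, 23133, 17477 and 9262 FPKM in ZT9 replicates 1 to 5, against 3254 to 5209 FPKM at ZT19. The sum of 15 skeletal muscle genes went the other way, from 3950 to 10122 FPKM at ZT9 and from 7539 to 29601 FPKM at ZT19, and no marker of either list was at 0 in any of the 10 libraries. Rod genes ranged from 92.9 to 7278 FPKM at ZT9 and from 254 to 7939 FPKM at ZT19, without an order between the groups. ZT9 replicate 1 stood apart from the other ZT9 libraries: its surface epithelium sum was within the ZT19 range, its RPE identity sum of 15976 FPKM and its oligodendrocyte and myelin sum of 7512 FPKM were the highest of the group. RPE identity sums in ZT9 replicates 2 to 5 were 9026, 11718, 11211 and 10306 FPKM, each below the ZT19 range of 12114 to 16788 FPKM. The RPE signature itself was thus not level between the groups. In bulk samples of this kind, fewer cells of a type and less RNA per cell cannot be told apart.

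**Figure D1:**
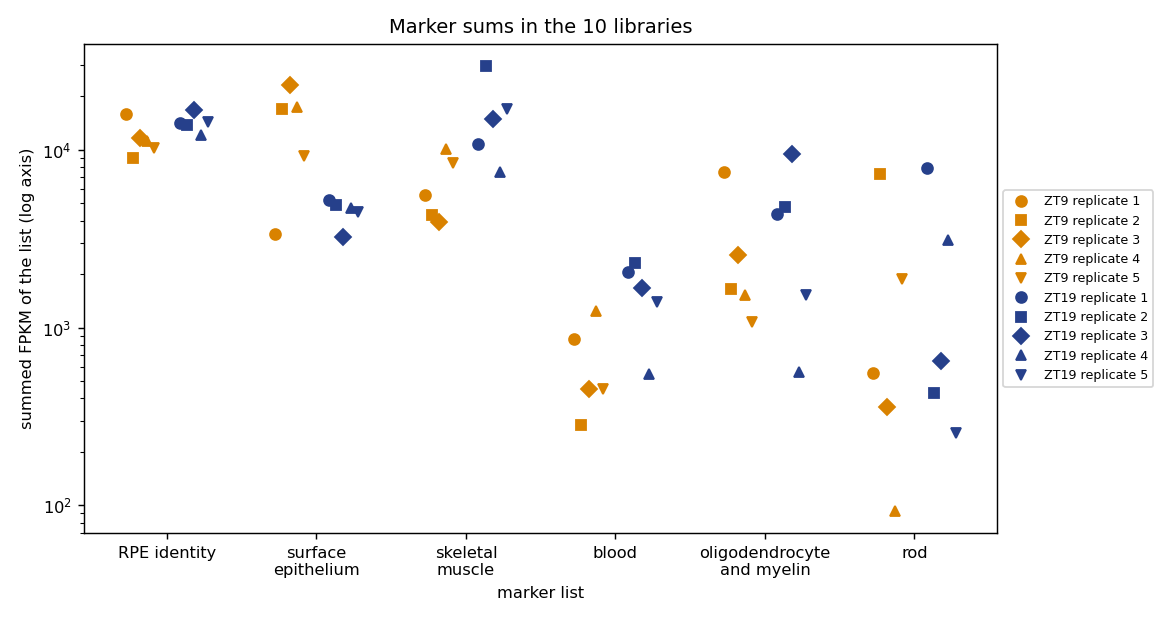
Summed FPKM of 6 marker lists (log axis) in the 10 libraries, with orange symbols for ZT9, blue for ZT19 and 1 symbol shape per replicate number. Surface epithelium is higher in 4 of the 5 ZT9 libraries than in any ZT19 library, and ZT9 replicate 1 (circle) is the exception. Muscle and RPE identity are mostly higher at ZT19.

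The estimated depth was 15.7 to 23.0 M reads (M: mega) at ZT9 and 15.3 to 19.6 M reads at ZT19, so it did not separate the groups. Between 16723 and 18217 genes were above 0 in these libraries. Across genes, the median Pearson r was 0.879 between 2 libraries of ZT9 (10 pairs), 0.878 between 2 of ZT19 (10 pairs) and 0.873 between 1 of each (25 pairs). Whether the 5 mice of a time point were collected on separate days is not in the labels, so the p-values cover the spread between mice only. That spread is taken within time points and pooled over all 30 libraries of the 6 time points.

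The clock loop dominated the list of genes that differed. Of 16741 genes tested, 8 passed an adjusted p of 0.05 in limma's moderated test on log2(FPKM + 1) with Benjamini-Hochberg adjustment, which is 0.0478% of all genes. Of these, 5 were higher at ZT9 (0.0299%): Nr1d1, Dbp, Nr1d2, Ccnd1 and Emx2. The 3 that were higher at ZT19 (0.0179%) included Arntl and Sar1b. At an unadjusted p of 0.05, 1451 genes (8.67%) passed, 755 higher at ZT9 (4.51%) and 696 higher at ZT19 (4.16%), where 837 would pass by chance alone. The 5 ZT9 values and the 5 ZT19 values did not overlap in 268 genes (1.6%), of which 144 were above at ZT9 (0.86%) and 124 below (0.741%). The median difference over all genes was -0.01. Below, a difference is always ZT9 minus ZT19 on the log2(FPKM + 1) scale with its standard error, which understates the change of low genes.

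Read against these shares, calls were dense among the 26 measured genes of the 4 clock lists. Of them 5 passed the adjusted threshold (3 higher at ZT9, 2 lower), 10 were higher and 3 lower at an unadjusted p of 0.05, and 11 had groups that did not overlap. Their median difference was 0.26.

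Among the repressors, 8 of 10 were higher at ZT9 at an unadjusted p of 0.05, none was lower, and the median difference was 1.09. Nr1d1 encodes REV-ERBα and lies on chromosome 11 from 98767932 to 98775333 on the minus strand (GRCm38, as are all positions given here). It was at 66.8, 67.9, 78.7, 62.2 and 81.4 FPKM in ZT9 replicates 1 to 5 and at 32.6, 7.57, 10.1, 12.1 and 8.23 FPKM in ZT19 replicates 1 to 5. The groups did not overlap, and ZT19 replicate 1 was the highest of the night libraries by a wide margin. The means were 71.4 ± 8.23 and 14.1 ± 10.5 FPKM (SD, n = 5 each), a difference of 2.46 ± 0.28 with limma's adjusted p = 2.57e-05. Exons of Nr1d1 share 263 of 3077 bases with Thra on the opposite strand, and whether counting used strand is not stated. Thra itself was at 94.2 FPKM at ZT9 and 101 FPKM at ZT19 (means of 5).

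Nr1d2, the gene of REV-ERBβ (chromosome 14, 18204054 to 18239127, minus strand), was the most even of the called genes within each group. It was at 61.3, 60.9, 54.8, 49.7 and 58.7 FPKM at ZT9 and at 26.0, 24.2, 27.6, 27.1 and 27.4 FPKM at ZT19. The lowest day library thus lay well above the highest night library. The means were 57.1 ± 4.87 and 26.5 ± 1.41 FPKM (SD, n = 5 each), and the difference was 1.08 ± 0.20 (limma, adjusted p = 0.0298).

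The Period genes, whose proteins enter the nucleus to block the Arntl and Clock dimer, were also higher at ZT9, but none passed the adjusted threshold. Per3 was at 15.5, 17.2, 23.5, 20.5 and 19.1 FPKM at ZT9 and at 8.51, 12.2, 6.03, 9.86 and 6.09 FPKM at ZT19 (difference 1.11 ± 0.30, limma's adjusted p = 0.228). Its groups did not overlap. Per2 was at 52.6, 8.89, 11.6, 7.31 and 9.55 FPKM at ZT9 and at 1.03, 2.09, 4.42, 5.59 and 3.10 FPKM at ZT19 (1.86 ± 0.54, limma's adjusted p = 0.309). Here too the groups did not overlap, and ZT9 replicate 1, the library with little surface epithelium, was far above the other 4. Per1 ranged from 13.0 to 42.4 FPKM at ZT9 with a median of 14.4, and from 5.48 to 11.6 FPKM at ZT19 with a median of 8.16 (1.20 ± 0.38, limma's adjusted p = 0.336).

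Ciart (CHRONO), a further repressor of the dimer, had the largest difference of the clock genes, 3.04 ± 0.68, with limma's adjusted p = 0.125. It was at 14.3, 24.9, 9.03, 8.77 and 17.1 FPKM at ZT9, and it was listed at 0 in ZT19 replicates 1, 2 and 5 and at 5.75 and 1.76 FPKM in replicates 3 and 4. All day libraries were above all night libraries. Of the Cryptochrome genes, which act together with the Period proteins, Cry2 was higher at ZT9 (1.01 ± 0.29, unadjusted p = 0.00183), while Cry1 spread from 5.86 to 80.3 FPKM at ZT9 and from 17.2 to 125 FPKM at ZT19 (-0.88 ± 0.84, unadjusted p = 0.301 in limma). Of the 2 DEC repressors, which compete for E-boxes, Bhlhe40 had groups that did not overlap (0.56 ± 0.21, limma's unadjusted p = 0.0130) and Bhlhe41 overlapped (0.21 ± 0.23).

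Promoter sequence (RefSeq, build GRCm38.p6) was at hand for 22 of the 29 clock and called genes, and the 250 bases before each annotated start were searched on both strands for 6 short motifs. The E-box CACGTG was in 5 of the 22 (Ciart, Per1, Cry1, Bhlhe41 and Tef) and in 9.44% of the 11866 tested genes with a promoter; a gene counts where any of its promoters holds the motif. The variant CACGTT was in 4 (4.96% of the tested genes), the D-box TTANGTAA in 2 (1.62%), the core AGGTCA of ROR and REV-ERB sites in 4 (13.5%), the cAMP response element TGACGTCA in 1 (2.9%) and the glucocorticoid response element in none (0.329%). Counted per promoter, these motifs were in 6.02%, 3.85%, 2.06%, 14.0%, 1.55% and 0.387% of all 32851 promoters. Motifs can overlap each other, and a match describes letters and not binding. The windows searched for Arntl, Dbp, Sar1b and Emx2 held none of the 6. Only these letters were searched and only before the start, so sites with other letters or elsewhere in a gene would be missed. The 4 windows below belong to repressors that were higher at ZT9 and show 1 motif kind each; they were chosen after the motifs had been found. They are written 5′ to 3′ along the gene, and capitals mark the motif on either strand. Nr1d1 is chr11:98775378-98775627 (minus strand; the E-box variant, here read as its reverse complement, lies 28 to 23 bases before the start), Nr1d2 is chr14:18239107-18239356 (minus; the ROR and REV-ERB core, 77 to 72 bases before), Ciart is chr3:95882229-95882478 (minus; 3 E-boxes) and Per3 is chr4:151044666-151044915 (minus; 2 D-boxes).
Nr1d1: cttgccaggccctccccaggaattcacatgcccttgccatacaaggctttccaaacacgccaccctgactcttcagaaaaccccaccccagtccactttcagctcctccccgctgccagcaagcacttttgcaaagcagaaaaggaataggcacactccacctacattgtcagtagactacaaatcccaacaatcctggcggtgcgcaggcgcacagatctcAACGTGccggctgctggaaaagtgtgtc
Nr1d2: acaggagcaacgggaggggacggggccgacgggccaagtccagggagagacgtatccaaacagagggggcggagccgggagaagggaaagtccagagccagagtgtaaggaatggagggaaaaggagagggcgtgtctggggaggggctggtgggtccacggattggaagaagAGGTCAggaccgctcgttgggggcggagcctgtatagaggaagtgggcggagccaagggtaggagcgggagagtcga
Ciart: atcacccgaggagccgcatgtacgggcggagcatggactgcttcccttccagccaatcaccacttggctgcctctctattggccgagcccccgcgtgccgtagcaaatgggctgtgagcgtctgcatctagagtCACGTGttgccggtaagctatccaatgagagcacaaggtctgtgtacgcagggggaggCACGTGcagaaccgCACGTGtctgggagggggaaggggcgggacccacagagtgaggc
Per3: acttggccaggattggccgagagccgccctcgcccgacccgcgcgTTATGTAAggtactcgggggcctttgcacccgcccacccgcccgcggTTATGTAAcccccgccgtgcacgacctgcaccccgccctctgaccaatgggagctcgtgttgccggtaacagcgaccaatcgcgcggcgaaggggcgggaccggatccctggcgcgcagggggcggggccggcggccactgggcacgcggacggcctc

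Of the 6 activators, 2 were higher at ZT19, Arntl among them, and the other 4 overlapped between the groups; the median of the 6 was -0.23. Arntl, the gene of BMAL1 (chromosome 7, 113207465 to 113314126, plus strand), was at 1.47, 4.05, 3.57, 1.37 and 3.28 FPKM at ZT9 and at 16.2, 11.6, 12.2, 12.7 and 9.79 FPKM at ZT19. Every night library was above every day library, the reverse of Nr1d1. The means were 2.75 ± 1.24 and 12.5 ± 2.34 FPKM (SD, n = 5 each) and the difference was -1.90 ± 0.35 (limma, adjusted p = 0.0298). With a pseudocount of 0.1 or 0.5 in place of 1 the adjusted threshold was not met, and the direction stayed.

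The ROR receptor genes Rora and Rorb overlapped between the groups, with differences of 0.31 ± 0.30 and -0.34 ± 0.51. Clock, the partner of BMAL1, was at 15.4 ± 3.88 and 17.1 ± 5.02 FPKM (SD, n = 5 each; -0.12 ± 0.25). Npas2, which can take the place of Clock, was low in all but the replicate 3 library of either group (0.22 ± 0.49).

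Among the output factors, Dbp had the second smallest p of all genes. This D-box activator (chromosome 7, 45705088 to 45710203, plus strand) was at 273, 233, 253, 257 and 210.4 FPKM at ZT9 and at 81.6, 75.8, 81.2, 65.5 and 40.7 FPKM at ZT19. The groups were far apart. The means were 245 ± 24.4 and 68.9 ± 17.1 FPKM (SD, n = 5 each), a difference of 1.85 ± 0.23 (limma, adjusted p = 6.36e-05). Dbp shares 539 of 2993 exon bases with Sphk2 on the opposite strand, which was at 15.4 and 14.7 FPKM (means of 5). Tef, from the same family as Dbp, was higher at ZT9 at an unadjusted p of 0.0352 in limma (0.98 ± 0.44), and Hlf, the remaining member, differed by 0.76 ± 0.50. Nfil3, which represses through the same D-boxes, went the opposite way: 5.11, 2.77, 0.942, 4.90 and 5.04 FPKM at ZT9 against 17.9, 9.28, 7.40, 6.91 and 12.2 FPKM at ZT19, with no overlap (-1.35 ± 0.42, limma's unadjusted p = 0.00312 and adjusted p = 0.335).

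Genes for the turnover of clock proteins gave no call. None of the 6 (among them the kinases Csnk1d and Csnk1e and the ubiquitin ligase genes Fbxl21, Fbxw11 and Btrc) passed an unadjusted p of 0.05, and their median difference was 0.08. The furthest was Csnk1e at 0.53 ± 0.33.

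**Figure D2:**
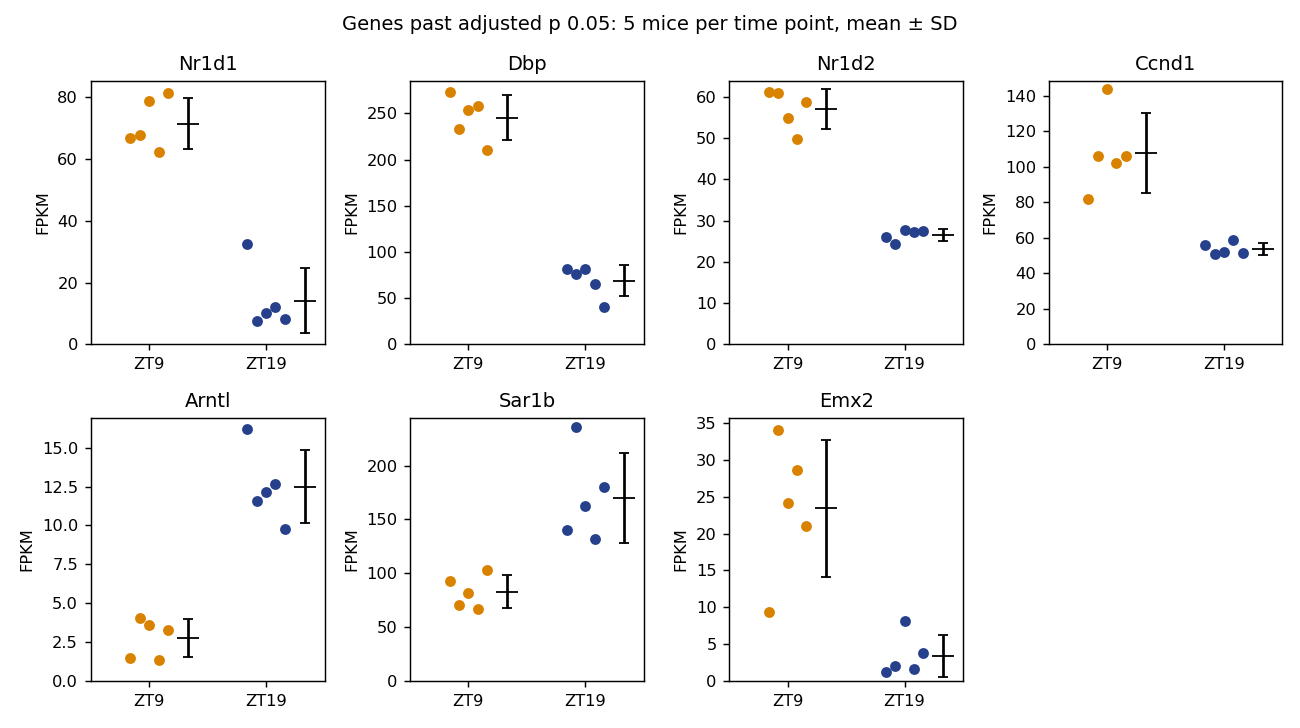
FPKM of 7 of the 8 genes past the adjusted threshold in each of the 5 mice at ZT9 (orange) and ZT19 (blue), with mean ± SD in black and axes from 0. In none of the 7 do the groups overlap, and in Emx2 the lowest day value (9.36 FPKM) is just above the highest night value (8.19 FPKM).

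Outside the clock lists, 3 genes passed. Ccnd1 encodes cyclin D1, the partner of CDK4 and CDK6 in G1 (chromosome 7, 144929931 to 144939925, minus strand). It was at 81.7, 106, 144, 102 and 106 FPKM at ZT9 and within a narrow band at ZT19, at 56.1, 50.6, 52.1, 58.6 and 51.5 FPKM. The difference was 0.97 ± 0.18 (limma, adjusted p = 0.0298). The lowest day value was from ZT9 replicate 1, the library with the low surface epithelium sum. Ccnd1 shares 1100 of 4709 exon bases with LTO1 on the opposite strand, at 15.7 and 19.8 FPKM (means of 5).

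Emx2, a homeobox factor of brain, urogenital and inner ear development (chromosome 19, 59458372 to 59465357, plus strand), was at 9.36, 34.1, 24.2, 28.7 and 21.0 FPKM at ZT9 and at 1.24, 2.08, 8.19, 1.62 and 3.73 FPKM at ZT19. ZT9 replicate 1 was again the lowest day library, just above ZT19 replicate 3. The difference was 2.58 ± 0.51 (limma, adjusted p = 0.0435). Sar1b, a small GTPase of the COPII coat that carries cargo, large lipoproteins among it, out of the endoplasmic reticulum (chromosome 11, 51763687 to 51791925, plus strand), was higher at ZT19. It was at 92.5, 70.5, 81.8, 66.3 and 103 FPKM at ZT9 and at 140.1, 236, 162, 131 and 180.4 FPKM at ZT19, a difference of -1.01 ± 0.20 (limma, adjusted p = 0.0384).

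How far these calls depended on single libraries differed between genes. Nr1d1 and Dbp passed when any 1 of the 10 libraries was left out, with adjusted p from 3.16e-08 to 2.50e-04 and from 1.39e-04 to 5.01e-04 (limma). Nr1d2 passed in 4 of the 10 cases (without ZT9 replicate 1 or 4, or ZT19 replicate 3 or 4), Ccnd1 and Sar1b in 2 (without ZT9 replicate 1 or ZT19 replicate 4), Emx2 in 2 (without ZT9 replicate 1 or ZT19 replicate 3) and Arntl in 1 (without ZT9 replicate 1). Their differences moved little: Nr1d2 stayed between 1.05 and 1.13, Arntl between -2.03 and -1.75, Ccnd1 between 0.86 and 1.06, Sar1b between -1.10 and -0.89 and Emx2 between 2.39 and 2.90. The largest limma adjusted p over these cases was 0.108 for Nr1d2, 0.129 for Arntl, 0.141 for Ccnd1, 0.210 for Emx2 and 0.251 for Sar1b. All these fits also held the other time points. With only the 10 libraries of ZT9 and ZT19 in the fit, Dbp and Nr1d2 passed, while Nr1d1, Arntl, Ccnd1, Emx2 and Sar1b did not.

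The animal numbers in the labels fall into 4 runs, of which 3 hold mice of both time points (2 against 2, 2 against 1 and 1 against 1) and the remaining one a single ZT19 mouse. What a run stands for is not stated. The 7 genes described above kept their direction in each of the 3 runs. Nr1d1 differed by 2.01, 2.68 and 3.16, Nr1d2 by 1.25, 0.89 and 1.07, Dbp by 1.67, 1.64 and 2.34, and Arntl by -2.06, -2.00 and -1.33. Ccnd1 differed by 0.79, 1.20 and 1.03, Emx2 by 2.86, 1.57 and 2.22, and Sar1b by -1.16, -1.13 and -0.80. With the run entered as a term, Nr1d1, Nr1d2 and Dbp passed the adjusted threshold, while Arntl, Ccnd1, Emx2 and Sar1b did not.

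ZT9 replicate 1 weighed most on the total. Without it 22 genes passed, all of the 8 among them, 18 higher at ZT9. The 14 gained genes include several of stratified epithelium. Slurp1, a secreted protein of cornea and skin, was at 29.7 FPKM in ZT9 replicate 1, at a mean of 668 FPKM in the other 4 and at a mean of 32.2 FPKM at ZT19. Col17a1, the hemidesmosome collagen, was at 27.1, 118 and 15.8 FPKM in the same order, and Dsp, the desmosome linker desmoplakin, at 25.1, 127 and 27.0 FPKM. Dsp was the only 1 of the 14 on the surface epithelium list.

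Markers of other tissues moved with the time points in these 10 libraries. Of the 18 surface epithelium genes, 14 were higher at ZT9 at an unadjusted p of 0.05 and none lower (median 1.26), and none passed the adjusted threshold. With 1 library left out, 9 to 15 were higher, with 9 without ZT9 replicate 3. Krt5, the basal keratin, was at 1879 ± 1037 FPKM at ZT9 and 480.2 ± 130.1 FPKM at ZT19 (SD, n = 5 each; 1.74 ± 0.52), and Krt12, the corneal keratin, at 116, 4629, 4299, 1935 and 1372 FPKM against 174, 86.5, 3.42, 534 and 888 FPKM (3.51 ± 1.13). Of the 15 skeletal muscle genes, 10 were higher at ZT19 and none at ZT9 (median -1.23); Mylpf, a fast muscle myosin light chain, was at 1882 ± 712 and 5075 ± 2884 FPKM (SD, n = 5 each). Of 5 blood genes tested, 4 were higher at ZT19, with haemoglobin Hbb-bs at 338 ± 187 and 863 ± 359 FPKM (SD, n = 5 each). Of other tissues, 2 of 12 endothelial and 4 of 16 immune genes were higher at ZT19 at the unadjusted threshold, and 0 and 1 at ZT9. Over all genes tested, 4.16% were higher at ZT19 and 4.51% at ZT9 at that threshold. The endothelial count was 0 to 4 with 1 library left out, with 0 without ZT9 replicate 2 or ZT19 replicate 2.

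When 5 tissue scores (surface epithelium, skeletal muscle, rod, myelin and stroma, each the mean log2 of its list) were entered as terms beside the time points, no gene passed the adjusted threshold in limma, and 1571 passed an unadjusted p of 0.05. Without the scores that number was 1451. Surface epithelium and muscle markers moved with the time points, as given above, and RPE identity was not among the scores. The standard errors printed below were larger than those given above for the same genes, and what lay behind the loss of calls was not tested. In this fit Nr1d1 was at 2.44 ± 0.42 and Nr1d2 at 1.42 ± 0.25 (limma's adjusted p = 0.0726 for both), Dbp at 1.63 ± 0.35 (0.268) and Arntl at -2.37 ± 0.49 (0.246). Other clock genes, which had no call, turned sign: Rorb was at 0.53, Npas2 at -1.23, Cry1 at 0.26, Csnk1e at -0.24 and Fbxl21 at -0.39. Emx2 was at 2.73 ± 0.75. Ccnd1 went from 0.97 to 0.55 ± 0.21 and Sar1b from -1.01 to -0.77 ± 0.27.

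**Figure D3:**
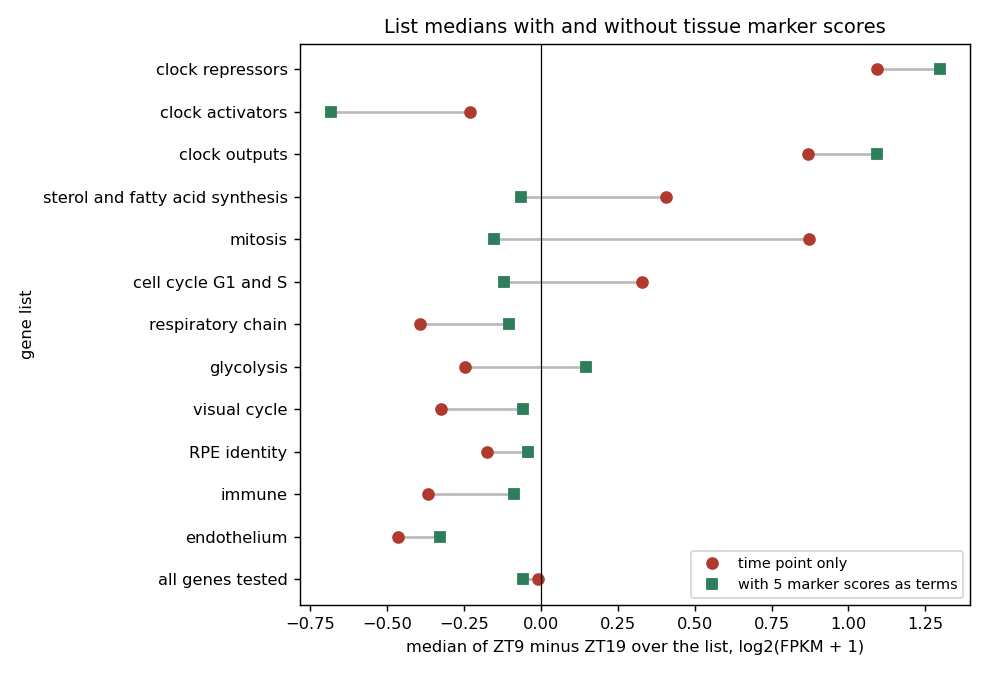
Median difference (ZT9 minus ZT19, log2 scale) over the members of 12 gene lists and over all genes tested, from the fit with time point only (red circles) and from the fit with 5 tissue marker scores as terms (green squares). The clock medians keep their side of 0, while mitosis goes from 0.87 to -0.15 and sterol synthesis from 0.41 to -0.06.

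Of 28 mitosis genes, 6 were higher at ZT9 at an unadjusted p of 0.05 (4 to 8 with 1 library left out) and none lower, with a median of 0.87, but at low levels. The share of all genes higher at ZT9 at that threshold was 4.51%. Pbk, a mitotic kinase, was at 3.43, 2.41, 6.57, 3.87 and 6.72 FPKM at ZT9 and listed at 0 in all 5 ZT19 libraries (limma's adjusted p = 0.0830). Mki67, the proliferation antigen, was at 3.63, 3.17, 4.92, 7.59 and 4.02 FPKM against at most 1.25 FPKM (limma's adjusted p = 0.336). ZT9 replicate 1 was within the ZT9 range for both. With the tissue scores as terms, 2 mitosis genes were higher and 2 lower, and the median was -0.15, with Mki67 at 2.64 ± 0.73 and Plk1 turned from 1.24 to -0.18. Of 17 genes of G1 and S phase, 2 were higher at ZT9: Ccnd1 and its kinase partner Cdk4 (163 ± 27.9 and 125 ± 25.8 FPKM; SD, n = 5 each; limma's unadjusted p = 0.0395). That count was 1 to 3 with 1 library left out.

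Sterol and fatty acid synthesis was split. Of 27 genes, 9 were higher at ZT9 and 2 at ZT19 at the unadjusted threshold (median 0.41). With 1 library left out, 5 to 10 were higher at ZT9, with 5 without ZT19 replicate 2. The shares over all genes, with all libraries, were 4.51% higher at ZT9 and 4.16% higher at ZT19. Srebf2, the factor that drives the pathway, differed by 0.59 ± 0.19, and Fasn, fatty acid synthase, by -1.28 ± 0.41. None of the 27 passed the adjusted threshold. With the tissue scores as terms, 1 was higher and 1 lower and the median was -0.06.

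Energy metabolism leaned to the night side. Of 22 respiratory chain genes, 10 were higher at ZT19 at an unadjusted p of 0.05 and none at ZT9, and 21 of 22 had a negative difference (median -0.39). With 1 library left out, 6 to 12 were higher at ZT19, with 6 without ZT9 replicate 3 or ZT19 replicate 2. The shares over all genes, with all libraries, were 4.16% higher at ZT19 and 4.51% higher at ZT9. Cox5a, of complex IV, was at 220.2 ± 49.9 FPKM at ZT9 and 369 ± 79.6 FPKM at ZT19 (SD, n = 5 each; -0.74 ± 0.25, limma's adjusted p = 0.375). Of 20 glycolysis genes, 5 were higher at ZT19 and none at ZT9 (median -0.25), led by Gapdh (-0.52 ± 0.17) and by the muscle phosphofructokinase gene Pfkm (-0.81 ± 0.31). The count of 5 was 2 to 6 with 1 library left out, with 2 without ZT9 replicate 3 or ZT19 replicate 2. With the tissue scores as terms the medians were -0.10 and 0.15, 1 gene of each list was higher at ZT9, and 0 and 1 were higher at ZT19. Muscle and RPE identity sums were mostly higher at ZT19, with overlap between the groups, as given above. The part of either in these lists was not tested.

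In the pathways of RPE duty no gene passed the adjusted threshold at these 2 times, and the counts that follow are at an unadjusted p of 0.05. In the visual cycle, 1 of 14 genes was higher at ZT19 (Rdh11, a retinol dehydrogenase, 25.4 ± 4.63 and 43.0 ± 9.61 FPKM; SD, n = 5 each; limma's unadjusted p = 0.0118) and none at ZT9, with a median of -0.32. In the uptake of outer segments, 1 of 21 was higher at ZT19: Cd36, a scavenger receptor (-0.74 ± 0.31). Of 26 lysosome and autophagy genes, 2 were higher at ZT9, among them the protease gene Ctsl (0.40 ± 0.17), and 3 at ZT19, among them Map1lc3a and Npc2 (-0.40 ± 0.16 and -0.36 ± 0.15). None of 15 RPE identity genes, of 16 melanin genes or of 22 genes of ion, lactate and water transport passed an unadjusted p of 0.05. With 1 library left out, the lysosome counts were 0 to 2 at ZT9 and 1 to 6 at ZT19. The background is 8.67% of all genes. Differences were negative in 13 of 14 visual cycle, 13 of 16 melanin and 11 of 15 RPE identity genes. They were negative in 12 of 21 uptake, 18 of 26 lysosome and 13 of 22 transport genes, and in 8517 of all 16741 genes. RPE identity sums were mostly higher at ZT19, as given above, and their part in these signs was not tested.

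Stress and hormone lists were mixed. Of 20 heat shock genes, 3 were higher at ZT9 and 5 at ZT19 at an unadjusted p of 0.05, against 4.51% and 4.16% of all genes. With 1 library left out these counts were 1 to 3 and 2 to 5, the lowest being 1 and 2 without ZT9 replicate 3. The inducible Hspa1b was at 17.8, 30.6, 56.3, 53.6 and 30.2 FPKM at ZT9, above all of 16.7, 17.1, 12.3, 14.3 and 13.3 FPKM at ZT19 (1.19 ± 0.39), while the constitutive Hspa8 (-0.41 ± 0.15) and its partner Dnaja1 (-0.54 ± 0.19) were below at ZT9 in all libraries. Of 17 glucocorticoid-responsive genes, 2 were higher at ZT9, Per1 and Errfi1 (0.58 ± 0.25), and none at ZT19, against 8.67% of all genes in either direction. With 1 library left out these counts were 1 to 3 and 0 to 2. Of 16 immediate early genes, Fosl2 was higher at ZT9 (1.16 ± 0.39), and the nuclear receptor genes Nr4a1 and Nr4a3 were higher at ZT19 (-1.01 ± 0.45 and -0.91 ± 0.37); neither passed without ZT9 replicate 2 or ZT9 replicate 3. Rbm3, an RNA-binding protein induced by cold, was higher at ZT9 (0.76 ± 0.25, limma's unadjusted p = 0.00455). None of these passed the adjusted threshold.

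The genes next to the adjusted threshold are given with no call. On the ZT9 side they were Pbk, Ciart, Epop (a Polycomb-associated protein, 2.29 ± 0.48, limma's adjusted p = 0.0701), F3 (tissue factor, 0.97 ± 0.21, 0.0893) and Itga6 (integrin α6 of hemidesmosomes, 1.27 ± 0.28, 0.105). On the ZT19 side they were Lrrc30 (-2.52 ± 0.51, limma's adjusted p = 0.0541), Gm11451 (-2.09 ± 0.43, 0.0651), Sdf2l1 of the endoplasmic reticulum chaperones (-1.34 ± 0.31, 0.163), Chid1 (-1.27 ± 0.30, 0.168) and the cytochrome P450 gene Cyp4f13 (-1.14 ± 0.27, 0.168). Gm11451 is a processed pseudogene, whose reads may be shared with its parent gene, and Chid1 shares 292 of 10855 exon bases with Tspan4 on the opposite strand.

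The early day and early night pair of the same study, ZT2 and ZT14, gave another picture of the clock. ZT14 replicate 3 had only 12754 genes above 0. It had 557 well-expressed genes listed at 0, against 6 to 23 in the 10 libraries of ZT9 and ZT19. That library is part of every ZT2 minus ZT14 value below, and values without it are not given. The 2 pairs share no mice, and the difference between their differences was tested in the same fit: 7 genes passed the adjusted threshold (0.0418% of 16741) and 1111 an unadjusted p of 0.05 (6.64%). Arntl was lower at ZT9 than at ZT19 but higher at ZT2 than at ZT14 (2.66 ± 0.35), and the 2 differences were apart by -4.56 ± 0.50 (limma's adjusted p = 1.10e-05). Per2 went the opposite way, at -3.71 ± 0.54 in ZT2 minus ZT14, apart by 5.57 ± 0.76 (adjusted p = 2.34e-04 in limma), and so did Per3 at -1.59 ± 0.30, apart by 2.70 ± 0.42 (0.00173). Nr1d2 was at -1.11 ± 0.20 and Dbp at -0.72 ± 0.23 in that pair, apart by 2.19 ± 0.28 and 2.57 ± 0.32 (limma's adjusted p = 6.87e-05 for both). The estimates of Nr1d1 had the same sign in both pairs, 2.46 against 0.40 ± 0.28, and the differences were apart by 2.06 ± 0.40 (limma's adjusted p = 0.0377). Between ZT2 and ZT14 neither Nr1d1 nor Dbp passed (limma's adjusted p = 0.656 and 0.389), so their signs in that pair are not settled. The remaining gene, E130114P18Rik, was at -1.78 ± 0.54 and 2.19 ± 0.54 (apart by -3.97 ± 0.76, limma's adjusted p = 0.0377). Ccnd1, Sar1b and Emx2 did not pass in this test (limma's adjusted p = 0.0876, 0.302 and 0.583), so for them the 2 pairs are not shown to differ.

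**Figure D4:**
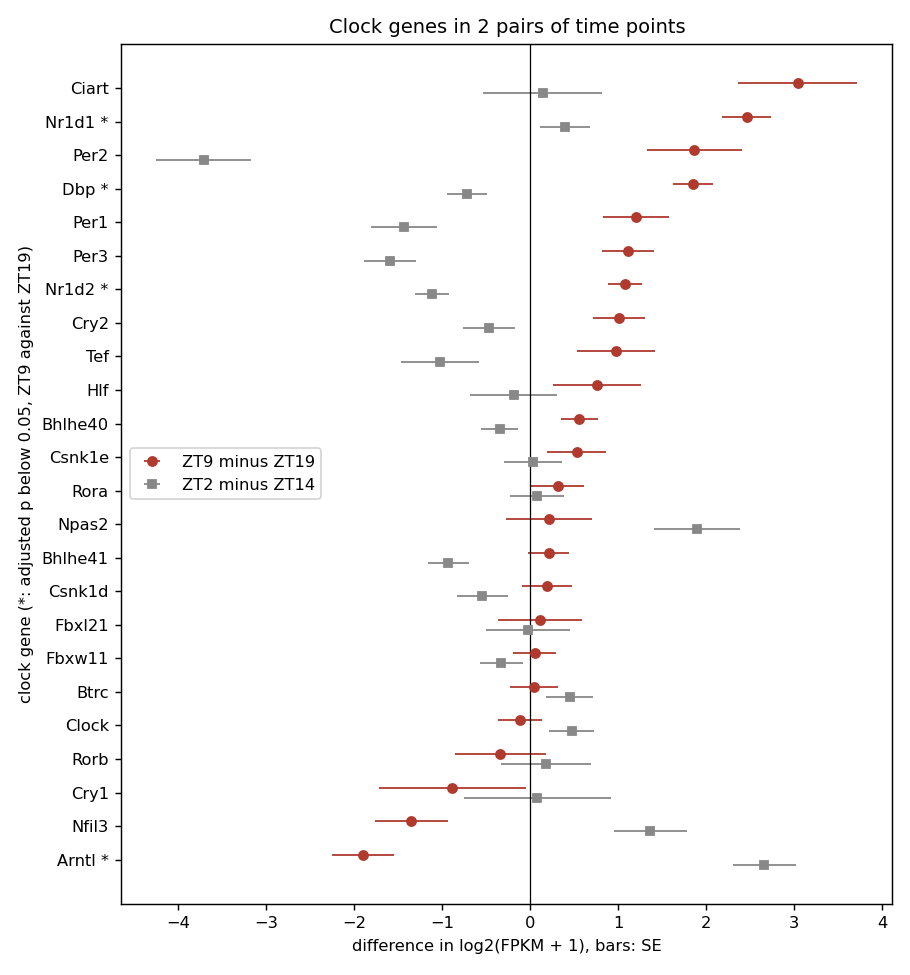
Difference in log2(FPKM + 1) of 24 clock genes between ZT9 and ZT19 (red circles) and between ZT2 and ZT14 (grey squares), bars for the SE, sorted by the first; a star marks adjusted p below 0.05 between ZT9 and ZT19. Per2 (1.86 and -3.71) and Arntl (-1.90 and 2.66) lie on opposite sides of 0 in the 2 pairs, and Nr1d1 (2.46 and 0.40) on the same side.

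Set beside the other time points, ZT9 held the highest mean of Nr1d1, Dbp, Nr1d2, Ccnd1 and Emx2 and the lowest of Sar1b. Dbp went from 47.8 ± 12.7 FPKM at ZT0 over 74.6 ± 19.8 at ZT2 and 133 ± 32.7 at ZT4 to 245 at ZT9, and was at 124 ± 37.9 FPKM at ZT14 (SD, n = 5 each). Nr1d1 was already at 57.9 ± 7.90 FPKM at ZT4 and had come down to 23.8 ± 8.20 FPKM at ZT14 (SD, n = 5 each), whereas Nr1d2 was still at 51.3 ± 12.3 FPKM then. Arntl was as low at ZT14 (2.22 ± 2.06 FPKM; SD, n = 5) as at ZT9, and ZT19 was not its summit, which lay at ZT0 with 19.5 ± 5.82 FPKM (SD, n = 5). Sar1b had its highest mean at ZT19, above ZT0 (103 ± 17.2 FPKM; SD, n = 5). Ccnd1 and Emx2 had their lowest means at ZT19; at ZT14 they were at 85.5 ± 16.0 and 10.8 ± 9.75 FPKM (SD, n = 5 each). These levels are a description with no test of their order. The ZT14 means include replicate 3, the library with 557 well-expressed genes listed at 0.

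**Figure D5:**
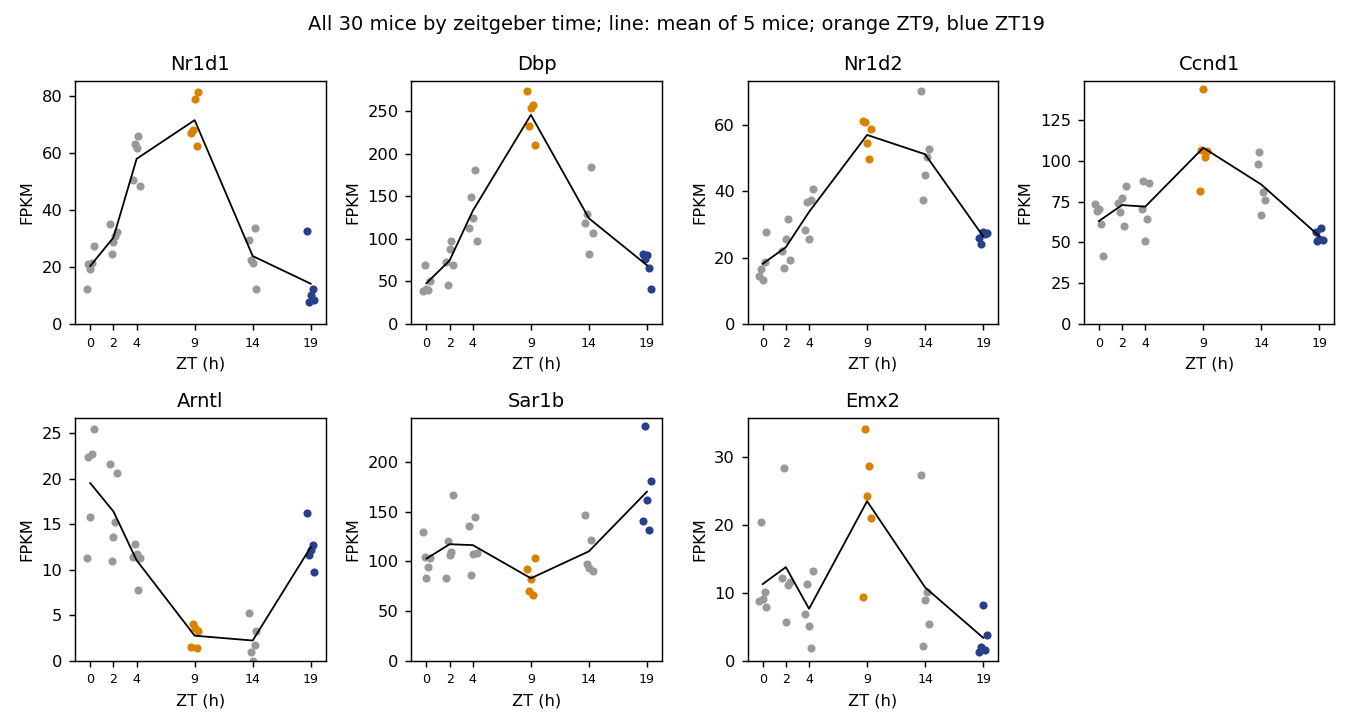
FPKM of 7 called genes in all 30 mice against zeitgeber time (h), with orange points for ZT9, blue for ZT19, grey for the other times and a line through the means of 5 mice. Dbp has its highest mean at ZT9 (245 FPKM), while Arntl is low at ZT9 and ZT14 (2.75 and 2.22 FPKM).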

How the data were processed

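The 10 libraries compared are part of a table of 30 samples in FPKM that the authors deposited, with decimal commas, for 51904 Ensembl genes. STAR, Cufflinks, DESeq2 and the build mm10 are named, per the submitters' processing notes; versions, roles, annotation and strand setting are not given in the sources used here. RNA came from a micro column kit and reads were single, 75 bases, per the labels' protocols. Counts were not used here; the read number of each library is an estimate, from how finely its low FPKM values are spaced.

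The 16741 genes that reached FPKM 1 in 5 or more of the 30 samples were kept. Values were analysed as log2(FPKM + 1) computed from the deposited FPKM, with limma 3.58.1 in R 4.3.3: 1 mean per time point, all 30 samples, 24 residual degrees of freedom, a mean-variance trend, two-sided moderated tests, Benjamini-Hochberg adjustment over all genes and a threshold of 0.05. All 30 samples entered so that the 6 time points share 1 estimate of the spread. SD is the spread of 5 mice in FPKM. Tested on simulated data for this comparison (5 draws of 200 changed genes among 16741), the fit recovered 23.9% of 2-fold, 76.7% of 4-fold and 94.5% of 8-fold changes, with 11 false among 660 calls. The changed genes were drawn only from those with a mean log2(FPKM + 1) above 2. They were more numerous than the 8 called here, which eases the adjusted threshold. The spread around the time point means was shuffled between libraries, so tissue differences between time points were not kept. These rates therefore need not hold for the real libraries.

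The members and the 37 gene lists were chosen with earlier results of these data known, so their counts are descriptions. Genes named are every measured clock gene, every gene past the adjusted threshold, in each other list up to 3 members of the smallest unadjusted p below 0.05 (or else 1), the 5 genes per direction next to the threshold, and the first 2 genes of each tissue list. A few genes that this rule names are not reported here. The genes gained without ZT9 replicate 1 were named after their values were seen. Positions are from GENCODE M21 (GRCm38, the assembly of mm10) and promoters from RefSeq GRCm38.p6. Alternatives tried were other pseudocounts, filters, scalings and terms, only the 10 samples, and leaving out single libraries.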

Additional observations from a re-analysis of the deposited data

Results flagged for a closer look

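Among 122 named genes, each tested in both groups (244 groups of 5), 7 values stood apart from the other 4 of their group by Dixon's criterion; chance gives about 1 in 20 groups. Per2 in ZT9 replicate 1 was at 52.6 FPKM, where the other ZT9 libraries lay between 7.31 and 11.6 FPKM. In ZT19 replicate 3, Npas2 was at 5.26 FPKM (others 0.463 to 0.982), Csnk1d at 79.7 FPKM (others 43.0 to 46.9) and Krt5 at 261 FPKM (others 463 to 576). Rorb in ZT19 replicate 2 was at 1.20 FPKM (others 5.84 to 9.71), Col1a2 in ZT19 replicate 1 at 97.1 FPKM (others 201 to 245) and Aldoa, a glycolytic enzyme, in ZT9 replicate 3 at 739 FPKM (others 959 to 1050.2). The surface epithelium sum of ZT9 replicate 1, which rests on many genes, is given with the libraries above.

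The difference between ZT9 and ZT19 was itself unlike the difference between ZT2 and ZT14 in 7 genes, with limma's adjusted p for the gap: Arntl (-4.56, adjusted p = 1.10e-05), Nr1d2 (2.19) and Dbp (2.57, both 6.87e-05), Per2 (5.57, 2.34e-04), Per3 (2.70, 0.00173), and Nr1d1 (2.06) and E130114P18Rik (-3.97, both 0.0377). ZT14 replicate 3, with 557 well-expressed genes listed at 0, is part of these values.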

How the results depend on the processing

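The count of 8 genes was 9 with a pseudocount of 0.1 or 0.5, with a filter of FPKM 5, or without ZT14 replicate 3 (a library with 557 well-expressed genes listed at 0), and 8 without a filter or after median-ratio rescaling. It was 5 after quantile normalization (3 higher at ZT9) and without the variance trend (3 higher), 3 with only the 10 samples (3 higher, 0 lower; 2 clock genes), 5 with the run of animal numbers as a term (5 higher, 0 lower; 3 clock genes), 7 with the eye side as a term, and 0 with the 5 tissue scores as terms (0 higher, 0 lower, 0 clock genes). With only the 10 samples, 8 residual degrees of freedom remain. Leaving out 1 library gave 2 to 22 genes, 2 to 18 of them higher at ZT9, 0 to 4 lower, and 2 to 5 clock genes. The 7 genes in which the 2 pairs of time points differ were 9 with the tissue scores as terms and 5 to 8 with 1 library left out, and could not be fitted with only the 10 samples. Each library is from a different mouse and the labels name no pairs, so no paired analysis was made. The replicate numbers used here only name the samples.

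Directions turned in genes that had no call. With the tissue scores as terms Rorb was at 0.53, Npas2 -1.23, Cry1 0.26, Csnk1e -0.24, Fbxl21 -0.39, Pfkm 0.0835, mt-Nd1 0.17, Gpx4 0.0692, Plk1 -0.18, Des 0.10, Trpm1 0.0926, Cdh5 0.0426, Tagln -0.50 and Cd68 0.10; the part of each tissue in them was not tested. With a pseudocount of 0.1 Cryba1 was at -0.28. Leaving out 1 library turned the sign in some cases for Clock (-0.28 to 0.0045), Npas2 (-0.16 to 0.60), Fbxl21 (-0.18 to 0.43), Fbxw11 (-0.11 to 0.21), Btrc (-0.0251 to 0.16), Gnat1 (-1.71 to 0.0099), Opn1mw (-0.42 to 1.03), Trpm1 (-0.42 to 0.13), Col1a2 (-0.0707 to 0.33), Tagln (-0.24 to 0.36), Cryaa (-0.84 to 0.74) and Cryba1 (-0.67 to 0.84). In simulated data for this comparison, 23.9% of 2-fold, 76.7% of 4-fold and 94.5% of 8-fold changes were recovered. Those changes were placed only in better expressed genes, and tissue differences between the time points were not kept, so the rates need not hold for the real libraries.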
